A study of Homo sapiens with 16 samples.

Results

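The RNA of 10 genes that resolve DNA topology or deal with the protein-DNA adducts of topoisomerases was followed in HCT116, an established line of human colorectal carcinoma cells, after depletion of NORAD, a long noncoding RNA, and in wild-type cells. The genes were listed by name: the topoisomerase genes TOP2A, TOP2B, TOP3A, TOP3B and TOP1MT, the TOP3A partner genes BLM and RMI1, the adduct phosphodiesterase genes TDP1 and TDP2, and PARP1. TOP1 was not a member. Each value is the sum of the estimated counts of a gene's transcripts in GENCODE 29, and the 10 were among 31495 genes in all. All 10 passed the filter on low counts, so no member was lost. Polyadenylated RNA was measured by strand-specific sequencing in 16 libraries. They comprised 2 libraries of NORAD knockdown cells (KD) and 2 of wild-type cells (WT) at 24 h, 3 KD and 3 WT at 48 h, and 3 KD and 3 WT at 96 h. Knockdown used CRISPR interference (a dead Cas9 carrying a repressor domain blocks the promoter), switched on by 0.5 µg/ml doxycycline. The labels do not say whether WT cells also received doxycycline, which guide was used, or whether the KD cells were a clone. They do not say either that replicates were separate cultures, so p-values here measure the spread between libraries, which may be technical.

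Topoisomerases relax or untangle DNA by cutting it and holding the cut end on a tyrosine. Type II enzymes (TOP2A, TOP2B) pass a duplex through a double-strand break. TOP2A is made mainly in proliferating cells, where it separates sister chromatids, while TOP2B is made in dividing and resting cells alike and acts at transcribed genes. Type IA enzymes (TOP3A, TOP3B) pass single strands: TOP3A works with the helicase BLM and the scaffold RMI1 to take apart double Holliday junctions, and TOP3B also acts on RNA. TOP1MT is the type IB enzyme of mitochondrial DNA. When an enzyme is trapped on its cut, TDP1 removes the adduct left by type IB enzymes and TDP2 the adduct left by type II enzymes, and PARP1 senses the strand break and helps to recruit repair factors. In dividing colon cancer cells these enzymes are targets of drugs, among them the TOP2 poisons and the PARP inhibitors.

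The 48 h and 96 h KD libraries held less NORAD than WT, whereas those of 24 h did not. In CPM (estimated counts relative to library size, with TMM scaling) it had 229.7 and 188 in the 24 h libraries labelled knockdown, against 179 and 201 in WT. It had 18.1 to 24.8 CPM in KD and 155 to 162 CPM in WT at 48 h, and 66.2 to 79.9 CPM in KD and 181 to 184 CPM in WT at 96 h. ZNF10, a zinc finger gene with a KRAB repressor domain, had 109.5 and 78.75 CPM in the 24 h libraries labelled knockdown, against 0.264 and 0.439 CPM in WT (log2 fold change 8.05, edgeR adjusted p = 2.69e-05). At 48 h ZNF10 had 4.725 to 16.7 CPM in KD and 0.0607 to 0.110 CPM in WT (6.80, 3.98e-05). At 96 h ZNF10 had 32.6 to 39.3 CPM in KD and 0.0805 to 0.192 CPM in WT (7.98, 9.58e-06). Whether these reads come from the gene or from a repressor construct cannot be told from gene counts. Since NORAD was not lower at 24 h, differences at that time are given as those of the libraries labelled knockdown. Library totals were between 28391784 and 51853876 estimated counts. KD replicate 3 at 48 h stood apart: 6591 genes passed at 48 h with it and 8869 without it, and the counts of members and of gene lists called at 48 h are given with and without it. The epithelial markers EPCAM, KRT8, KRT18, KRT19 and CDH1 were high in every library, with summed levels of 4392 to 4777 CPM in KD and 6109 to 6406 CPM in WT at 48 h, and 5303 to 5501 CPM in KD and 4453 to 4888 CPM in WT at 96 h. Of the 13 markers of fibroblasts, immune and endothelial cells, COL1A1 (31.1 to 89.9 CPM) and CD68 (8.13 to 50.4 CPM) made up nearly all of the signal and the other 11 were at most at 2.00 CPM, with COL3A1, LUM, CD3E and LYZ at 0 in at least 1 library. The sum of the 13 was 134.5 and 135 CPM in the libraries labelled knockdown, against 105 and 121 CPM in WT at 24 h, 74.4 to 101.5 CPM in KD and 41.2 to 44.4 CPM in WT at 48 h, and 70.3 to 77.7 CPM in KD and 55.5 to 65.7 CPM in WT at 96 h. It moved with the knockdown, and its part in the results below was not tested.

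In WT cells the 10 genes spanned a wide range of levels. Per length, over 8 WT libraries, PARP1 was the most abundant at 91.1 ± 6.70 TPM (mean ± SD), followed by TOP1MT at 40.6 ± 3.45, TOP2A at 35.8 ± 13.6, TOP3B at 32.8 ± 1.47 and TOP2B at 27.1 ± 5.55 TPM. TOP3A had 19.03 ± 3.51, BLM 10.8 ± 4.70, TDP1 10.1 ± 1.82, TDP2 7.75 ± 2.86 and RMI1 5.22 ± 0.900 TPM. PARP1 lay clear of the next gene, with a lowest library of 82.5 TPM against a highest of 46.0 TPM for TOP1MT. Every other pair of neighbours in this order overlapped between libraries. TOP2A had the widest range, 21.4 to 58.6 TPM, and its levels differed by time, as described further on.

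With knockdown, members were lower or did not pass the test, and no member passed as higher at any time in the main test, although TOP2A did so at 48 h under 2 other scalings. At 24 h, 5 of 10 passed as lower in the libraries labelled knockdown and 0 as higher, where 12.4% and 5.14% of the 19836 genes tested did (17.6% in either direction; edgeR quasi-likelihood test, Benjamini-Hochberg adjusted p under 0.05). At 48 h, 4 of 10 passed as lower in KD and 0 as higher, where 18.5% and 14.8% of all genes did (33.2% in either direction). Without KD replicate 3 of 48 h, 5 members (TOP1MT, TDP1, PARP1, BLM and RMI1) passed as lower at 48 h and 0 as higher, and TOP2B did not pass. Of the 19817 genes tested without it, 4736 passed as lower and 4133 as higher. At 96 h, 5 of 10 passed as lower in KD and 0 as higher, where 5.15% and 5.35% of all genes did (10.5% in either direction). For the mean of the 48 h and 96 h differences, the times at which NORAD was lower, 6 of 10 (TOP2A, TOP1MT, TDP1, PARP1, BLM and RMI1) passed as lower and 0 as higher, where 17.6% and 13.4% of all genes did (31.0% in either direction). For this mean PARP1 did not pass under total-count scaling (-0.13, edgeR adjusted p = 0.0637) or abundance-dependent scaling (-0.09, 0.144), and BLM did not with its protein-coding transcripts alone (-0.48, 0.101). The members' median log2 fold change was -0.30 at 24 h, -0.26 at 48 h, -0.19 at 96 h and -0.23 for the mean of 48 h and 96 h, while the median over all genes tested was -0.02, 0.06, -0.01 and 0.03. In CPM with TMM scaling, every library labelled knockdown was below every WT library for 7 members at 24 h (32.9% of all genes). Every KD library was below every WT library for 4 members at 48 h (20.3%) and 5 at 96 h (15.6%). In TPM the groups of PARP1, BLM and RMI1 overlapped at 24 h, and those of TOP2B, TOP1MT and TDP1 at 48 h. Each comparison has its own WT libraries, and the mean shares its libraries with the 48 h and 96 h comparisons. In bulk RNA, fewer cells that express a gene and less RNA per cell cannot be told apart.

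**Figure D1:**
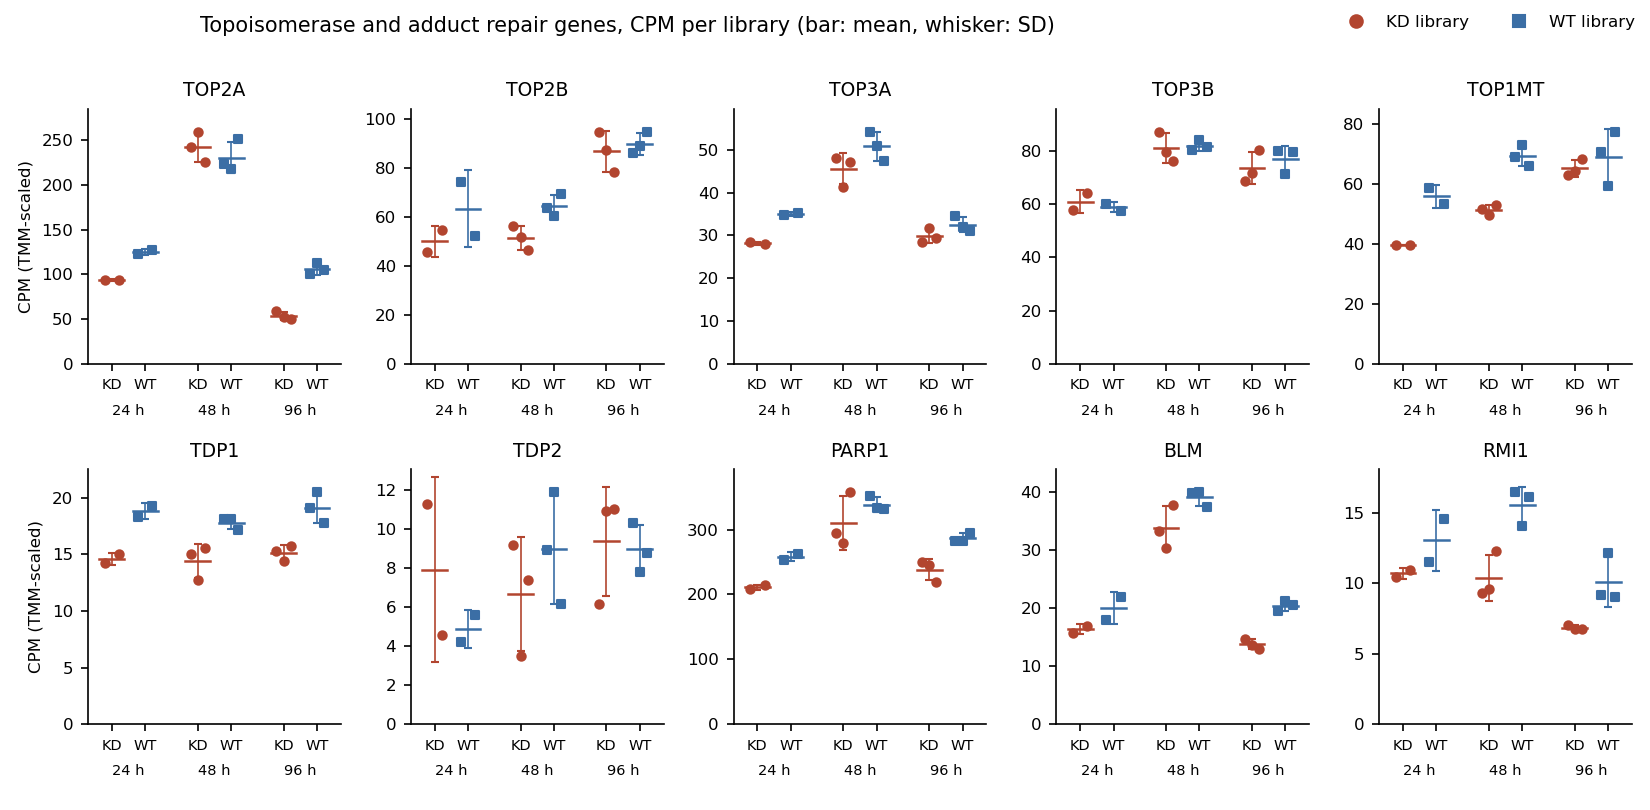
CPM of the 10 genes in each of the 16 libraries, 1 panel per gene, with KD libraries (red circles) left of WT libraries (blue squares) at 24 h, 48 h and 96 h; horizontal bars are group means and whiskers SDs (n = 2 at 24 h and 3 at 48 h and 96 h). KD and WT points separate at each time for TDP1 and RMI1, and at 24 h and 96 h for TOP2A, BLM and PARP1. They separate at 24 h and 48 h for TOP1MT, at 24 h for TOP3A and at 48 h for TOP2B, while TDP2 is scattered in every group.

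Scaling mattered for the calls at 24 h and 48 h. Total-count and upper-quartile scaling placed the median log2 fold change of all genes at 0.19 and 0.10 at 24 h and at 0.20 and 0.18 at 48 h, and the members moved with it: the 24 h value of TOP2A was -0.39 relative to that median under TMM, total-count and upper-quartile scaling alike. Calls rest on the value before that subtraction, and 0, 2 and 1 members passed at 24 h with total-count, abundance-dependent and upper-quartile scaling, against 5 under TMM. Of all genes called at 24 h, 2465 of 3484 were lower under TMM, 810 of 3287 under total-count scaling, 1489 of 3219 under upper-quartile scaling and 1388 of 2733 under abundance-dependent scaling. At 48 h these were 3663 of 6591, 2134 of 6865, 2476 of 6929 and 2808 of 5579 genes. At 96 h 5 members passed as lower under each of these scalings. The counts and medians of the gene lists further on are given under TMM only, and how far they depend on scaling was not tested.

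TOP2A, the type II enzyme of proliferating cells, was lower in the 24 h libraries labelled knockdown, did not pass at 48 h, and fell in KD to 0.508 times its WT level at 96 h. Fold changes are on the log2 scale and are given ± SE. At 24 h it had 94.3 and 93.3 CPM in the libraries labelled knockdown, against 123 and 127 CPM in WT. At 48 h it had 242, 259 and 226 CPM in KD libraries and 223, 218 and 251 CPM in WT libraries. At 96 h it had 58.7, 53.0 and 49.8 CPM in KD and 100.3, 113 and 105 CPM in WT. The groups did not overlap at 24 h and 96 h and overlapped at 48 h, where the highest and lowest of the 6 libraries were a KD and a WT library. The 24 h difference was -0.41 ± 0.10 (edgeR adjusted p = 0.00458), that of 48 h 0.07 ± 0.08 (0.506) and that of 96 h -0.98 ± 0.08 (1.35e-07). At 48 h it passed as higher under total-count scaling (0.21, edgeR adjusted p = 0.0477) and abundance-dependent scaling (0.26, edgeR adjusted p = 0.0279). The 24 h call was lost without KD replicate 2 (edgeR adjusted p = 0.0885) or WT replicate 2 (0.0553) of 24 h, and with total-count, abundance-dependent and upper-quartile scaling (0.183, 0.204 and 0.0502).

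The knockdown difference of TOP2A itself changed with time, and TOP2A was the only one of the 10 for which this passed in the main test. The F test over the 3 times gave an edgeR adjusted p of 2.48e-05, where 9.44% of all genes passed. The difference at 96 h was below that at 48 h, with a change of -1.05 ± 0.11 (edgeR adjusted p = 9.21e-06), where 4.20% of all genes passed as lower, 6.74% as higher and 10.9% in either direction. This held without any single library, with edgeR adjusted p from 2.40e-07 to 1.01e-04. The difference at 48 h was above that at 24 h by 0.48 ± 0.12 (edgeR adjusted p = 0.0485), where 1.07% of all genes passed as higher, 0.701% as lower and 1.77% in either direction, and leaving out any of 13 of the 16 libraries ended this call.

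TOP2B, the type II enzyme of dividing and resting cells, passed at 48 h and not at 24 h or 96 h with all libraries. It had 45.7 and 54.7 CPM in the libraries labelled knockdown, against 74.6 and 52.4 CPM in WT at 24 h. At 48 h it had 56.4, 51.9 and 46.6 CPM in KD and 63.7, 60.4 and 69.3 CPM in WT. At 96 h it had 94.8, 87.6 and 78.35 CPM in KD and 86.1, 89.1 and 94.7 CPM in WT. In CPM the KD libraries lay below WT libraries at 48 h, and the groups overlapped at 24 h and 96 h. In TPM the groups overlapped at each time. At 48 h the difference was -0.32 ± 0.11 and passed (edgeR adjusted p = 0.0364), whereas -0.34 ± 0.14 at 24 h (0.113) and -0.05 ± 0.11 at 96 h (0.876) did not. The 48 h call was lost without KD replicate 2 (edgeR adjusted p = 0.0884), KD replicate 3 (0.126), WT replicate 1 (0.0742) or WT replicate 3 (0.123) of 48 h, and with total-count, abundance-dependent and upper-quartile scaling (0.297, 0.418 and 0.257). Without WT replicate 2 of 24 h the 24 h value was -0.57 and passed (edgeR adjusted p = 0.0124). A retinoic acid receptor gene, RARB, overlaps TOP2B on the other strand.

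The ratio of TOP2A to TOP2B counts within a library does not depend on how libraries are scaled. It was 2.06 and 1.71 in the libraries labelled knockdown, against 1.645 and 2.43 in WT at 24 h. It was 4.29 to 5.00 in KD and 3.50 to 3.62 in WT at 48 h, and 0.605 to 0.636 in KD and 1.104 to 1.27 in WT at 96 h. TOP2A counts thus exceeded TOP2B counts in every library except the 3 KD libraries of 96 h. Counts are not divided by transcript length, so they do not rank the 2 genes. In TPM, TOP2B also exceeded TOP2A in the 3 WT libraries of 96 h (30.5 to 32.4 against 21.4 to 25.5). The same held in WT replicate 1 of 24 h (33.8 against 31.05). KD lay above WT at 48 h, by 0.40 on the log2 scale, and below WT at 96 h, by a log2 difference of -0.93, with no overlap at either time. Averaged over both times the difference was -0.27 and did not pass (exact permutation test over libraries within time, two-sided, p = 0.215, adjusted over 6 pairs of genes 0.323). With protein-coding transcripts alone it was -0.07 (exact permutation p = 0.83). The change of the difference between 48 h and 96 h was -1.32 (exact permutation p = 0.005, the smallest that the 400 arrangements allow, adjusted over 6 pairs 0.03). That last test was chosen after the values were seen. Of the other 5 pairs, TOP3A/TOP3B, TDP1/TDP2, BLM/RMI1, PARP1/PARP2 and TOP1MT/TOP1, none passed in either test, with exact permutation p from 0.095 to 0.72 for the mean and from 0.08 to 0.67 for the change.

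**Figure D2:**
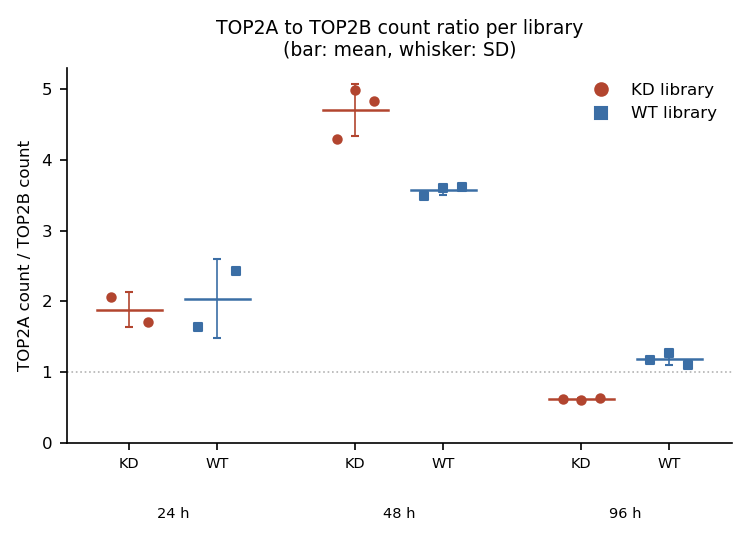
Ratio of the TOP2A to the TOP2B estimated count in each of the 16 libraries, KD (red circles) left of WT (blue squares) at 24 h, 48 h and 96 h; bars are means, whiskers SDs, and the dotted line marks equal counts. KD libraries lie above WT libraries at 48 h (4.29 to 5.00 against 3.50 to 3.62) and below them at 96 h (0.605 to 0.636 against 1.104 to 1.27). Counts are not divided by transcript length.

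BLM and RMI1, the partners of TOP3A, fell at 96 h and RMI1 also at 48 h, while TOP3A passed only at 24 h and TOP3B at no time. BLM, a RecQ helicase, had 15.8 and 17.0 CPM in the libraries labelled knockdown, against 18.03 and 21.9 CPM in WT at 24 h. The 48 h values were 33.4, 30.4 and 37.8 CPM in KD and 39.9, 40.0 and 37.5 CPM in WT. The 96 h values were 14.8, 13.7 and 13.0 CPM in KD and 19.5, 21.2 and 20.5 CPM in WT. In CPM the groups did not overlap at 24 h and 96 h, and at 48 h KD replicate 3 lay among the WT libraries. In TPM the groups overlapped at 24 h. The 96 h difference of -0.56 ± 0.09 passed (edgeR adjusted p = 3.33e-04), and those of -0.29 ± 0.12 at 24 h (0.0992) and -0.21 ± 0.09 at 48 h (0.0763) did not. Without KD replicate 3 of 48 h it passed at 48 h (-0.30, edgeR adjusted p = 0.00873) and at 24 h (-0.29, edgeR adjusted p = 0.0467). With only its protein-coding transcripts summed, the 96 h value was -0.52 and did not pass (edgeR adjusted p = 0.314).

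RMI1, which stabilises the complex of TOP3A with BLM, had 10.45 and 10.98 CPM in the libraries labelled knockdown, against 11.5 and 14.6 CPM in WT at 24 h. The 48 h values were 9.32, 9.63 and 12.3 CPM in KD and 16.5, 14.1 and 16.1 CPM in WT. The 96 h values were 7.07, 6.73 and 6.80 CPM in KD and 9.16, 12.1 and 9.01 CPM in WT. In CPM with TMM scaling, KD was below WT in every library at each time, while in TPM the groups overlapped at 24 h. The differences of -0.58 ± 0.13 at 48 h (edgeR adjusted p = 0.00154) and -0.56 ± 0.13 at 96 h (0.00716) passed, and that of -0.29 ± 0.16 at 24 h did not (0.267). The 96 h call was lost without WT replicate 2 of 96 h (edgeR adjusted p = 0.0791), the highest of the WT libraries.

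TOP3A had 28.5 and 27.9 CPM in the libraries labelled knockdown, against 34.7 and 35.3 CPM in WT at 24 h, with no overlap. It had 41.4 to 48.1 CPM in KD and 47.3 to 54.1 CPM in WT at 48 h, and 28.4 to 31.7 CPM in KD and 31.0 to 34.4 CPM in WT at 96 h, and at both times the groups overlapped. The 24 h difference was -0.31 ± 0.10 (edgeR adjusted p = 0.0312), that of 48 h -0.16 ± 0.08 (0.124) and that of 96 h -0.12 ± 0.08 (0.424). The 24 h call was lost without each library of 24 h (edgeR adjusted p from 0.116 to 0.301) or WT replicate 2 of 48 h (0.0937), and under each of the 4 other scalings (0.0621 to 0.55).

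TOP3B was 57.7 and 63.9 CPM in the libraries labelled knockdown, against 60.05 and 57.5 CPM in WT at 24 h, 76.0 to 87.0 CPM in KD and 80.3 to 83.9 CPM in WT at 48 h, and 68.6 to 80.05 CPM in KD and 71.1 to 80.0 CPM in WT at 96 h. The groups overlapped at each time. Its log2 fold changes were 0.05, -0.02 and -0.07 at 24 h, 48 h and 96 h, with edgeR adjusted p of 0.813, 0.876 and 0.716. The 48 h value was above 0 with total-count, abundance-dependent and upper-quartile scaling (0.13, 0.14 and 0.10). An antisense gene, AC245452.1, overlaps TOP3B on the other strand.

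The wider set of dissolvasome and TOP3 partner genes, 13 in number and without BLM and RMI1, had 4 members lower at 24 h, 4 lower and 1 higher at 48 h, and 5 lower at 96 h. Leaving out KD replicate 3 of 48 h gave 4 lower and 2 higher at 48 h, where 4736 and 4133 of all 19817 genes tested were so. With all libraries, 12.4%, 18.5% and 5.15% of all genes passed as lower at 24 h, 48 h and 96 h. As higher, 5.14%, 14.8% and 5.35% did. The median log2 fold change of the 13 genes was -0.27, -0.14 and -0.29. RPA2, a subunit of the single-strand DNA binding protein RPA, fell by 0.43 on the log2 scale at 48 h (edgeR adjusted p = 1.35e-04). TOPBP1, a checkpoint scaffold, fell by 0.49 at 96 h (edgeR adjusted p = 0.0013). The helicase gene PIF1 was the 1 that passed as higher at 48 h with all libraries (0.29, edgeR adjusted p = 0.0394), and at 96 h it passed as lower (-0.72, edgeR adjusted p = 2.22e-04). PIF1 at 48 h was named after its value was seen. Its 48 h call was lost with no filter (edgeR adjusted p = 0.0536), with libraries of that time only (0.13), with the replicate block (0.0626), and without any 1 of 5 of the 6 libraries of 48 h (0.0839 to 0.262), among them KD replicate 1 (0.17 on the log2 scale).

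**Figure D3:**
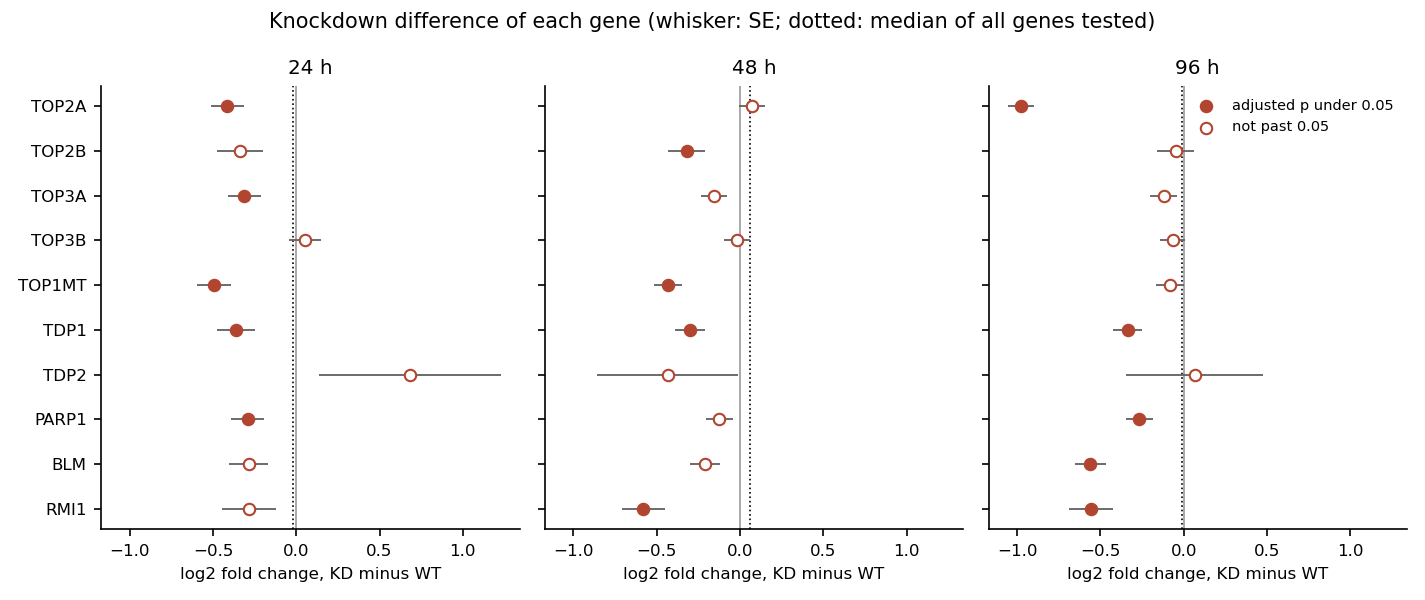
Log2 fold change, KD minus WT, of the 10 genes at 24 h, 48 h and 96 h; whiskers are SEs, filled points have an edgeR adjusted p under 0.05, open points do not, and the dotted line is the median of all genes tested. No filled point lies above 0, and TOP2A at 96 h (-0.98) has the lowest value of all, and the SE of TDP2 (0.41 to 0.55) is the widest at each time.

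TOP1MT, the topoisomerase of mitochondria, was lower in the libraries labelled knockdown at 24 h and in KD at 48 h, and not at 96 h. It had 39.5 and 39.6 CPM in the libraries labelled knockdown, against 58.4 and 53.1 CPM in WT at 24 h. At 48 h it had 51.7, 49.6 and 52.8 CPM in KD and 68.95, 72.8 and 66.0 CPM in WT. At 96 h it had 62.8, 64.3 and 68.1 CPM in KD and 70.5, 59.2 and 77.2 CPM in WT. In CPM the gap between the groups at 24 h and 48 h was wide, and at 96 h the lowest of all 6 libraries was a WT library. In TPM the groups overlapped at 48 h. The differences were -0.50 ± 0.10 (edgeR adjusted p = 0.00195), -0.43 ± 0.08 (4.57e-04) and -0.08 ± 0.08 (0.655) in that order of time, and the first was lost under total-count scaling (0.0708). The change of this difference between 48 h and 96 h was 0.35 ± 0.12 and did not pass (edgeR adjusted p = 0.0603). It passed without KD replicate 3 of 48 h (edgeR adjusted p = 0.022) or WT replicate 3 of 96 h (0.0283), under RLE scaling (0.0484) and with DESeq2 (0.024). TOP1, its nuclear counterpart, had values of -0.52 (edgeR adjusted p = 2.17e-04), -0.13 (0.154) and -0.04 (0.802) at the 3 times.

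Other nuclear genes that maintain mitochondrial DNA were lower as well, mostly at 24 h and 48 h. Of 13 such genes, 9 passed as lower in the libraries labelled knockdown at 24 h, 10 in KD at 48 h and 3 in KD at 96 h, and none passed as higher. At 48 h 11 passed as lower and 0 as higher without KD replicate 3, where 4736 and 4133 of all 19817 genes tested did. With all libraries, 12.4%, 18.5% and 5.15% of all genes passed as lower at the 3 times. The median log2 fold change of the 13 genes was -0.39, -0.42 and -0.21. TWNK, the helicase of mitochondrial DNA, had values of -0.62 at 24 h and -0.85 at 48 h (edgeR adjusted p = 3.07e-05 and 1.03e-08). TFB2M, a mitochondrial transcription factor gene, fell by 0.80 at 48 h, and SSBP1, the mitochondrial single-strand binding protein gene, fell by 0.50 at 48 h. The share of counts in mitochondrially encoded genes was 6.08% and 6.10% in the libraries labelled knockdown, against 4.89% and 5.05% in WT at 24 h, 12.3% to 13.8% in KD and 10.4% to 11.1% in WT at 48 h, and 14.8% to 17.4% in KD and 15.5% to 16.6% in WT at 96 h. This share enters the library totals, and its part in the differences above was not tested.

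TDP1, which removes the adducts of type IB enzymes, was lower at each of the 3 times, with differences of -0.36 to -0.30. It had 14.2 and 15 CPM in the libraries labelled knockdown, against 18.3 and 19.3 CPM in WT at 24 h. The 48 h values were 15.1, 12.7 and 15.5 CPM in KD and 18.1, 18.1 and 17.2 CPM in WT. The 96 h values were 15.3, 14.4 and 15.8 CPM in KD and 19.1, 20.5 and 17.8 CPM in WT. In CPM the groups did not overlap at any time. In TPM they overlapped at 48 h, with 7.85 in KD replicate 1 against 7.48 in WT replicate 3. The differences were -0.36 ± 0.11 (edgeR adjusted p = 0.0274), -0.30 ± 0.09 (0.0136) and -0.34 ± 0.09 (0.0158). The F test for a change with time did not pass (edgeR adjusted p = 0.955), which does not show that the 3 differences are equal. Single calls were fragile, since the 48 h call was lost without KD replicate 2 (edgeR adjusted p = 0.0827) or WT replicate 2 (0.0513) of 48 h, and the 96 h call without KD replicate 2 (0.0908) or WT replicate 2 (0.0992) of 96 h. The 24 h call was lost without each library of 24 h (0.079 to 0.194) or WT replicate 2 of 48 h (0.0779). Total-count and upper-quartile scaling ended the calls at 24 h (edgeR adjusted p = 0.423 and 0.122) and 48 h (0.194 and 0.0906), the replicate block those of 24 h (0.0779) and 96 h (0.0618), RLE scaling and no filter that of 24 h (0.0509 and 0.121), and libraries of that time only that of 48 h (0.0772). The mean of 48 h and 96 h (-0.32 ± 0.06, edgeR adjusted p = 5.35e-04) passed without any single library (0.000117 to 0.0026).

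TDP2, which removes the adducts of type II enzymes, varied widely between libraries of a group and did not pass at any time. It had 11.3 and 4.59 CPM in the libraries labelled knockdown, against 4.22 and 5.595 CPM in WT at 24 h, 9.17, 3.48 and 7.41 CPM in KD and 8.95, 11.9 and 6.18 CPM in WT at 48 h, and 6.16, 10.9 and 11.1 CPM in KD and 10.3, 7.79 and 8.80 CPM in WT at 96 h. The counts behind these values were 112 to 494. The differences were 0.68 ± 0.55, -0.43 ± 0.42 and 0.07 ± 0.41, with edgeR adjusted p of 0.497, 0.461 and 0.965. The groups overlapped at each time.

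PARP1, the strand break sensor and the most abundant of the 10, had 208 and 214 CPM in the libraries labelled knockdown, against 254 and 263 CPM in WT at 24 h. At 48 h it had 294.5, 279 and 357.5 CPM in KD and 351, 333 and 331 CPM in WT. At 96 h it had 249.6, 245 and 219.9 CPM in KD and 282, 282.5 and 295 CPM in WT. In CPM, KD replicate 3 of 48 h was the highest of all 16 libraries. With it the groups overlapped at 48 h, while they did not at 24 h and 96 h. In TPM the groups overlapped at 24 h. The 24 h difference was -0.29 ± 0.10 (edgeR adjusted p = 0.0463), that of 48 h -0.13 ± 0.08 (0.24) and that of 96 h -0.27 ± 0.08 (0.0362). Without KD replicate 3 of 48 h the 48 h value was -0.24 and passed (edgeR adjusted p = 0.00509). Its sign at 48 h turned under total-count scaling (0.01) and abundance-dependent scaling (0.09). Leaving out any of 12 of the 16 libraries ended the 24 h call, and any of 11 the 96 h call, with edgeR adjusted p up to 0.288 and 0.209. The 24 h call was also lost with total-count, upper-quartile, RLE and abundance-dependent scaling (0.586, 0.147, 0.088 and 0.817), no filter (0.19) and the replicate block (0.101). The 96 h call was lost with no filter (0.0711), the block (0.09) and libraries of 48 h and 96 h only (0.053).

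Single-strand break repair genes, 15 beside PARP1, had 7 lower at 24 h, 7 lower and 2 higher at 48 h, and 2 lower and 1 higher at 96 h, with medians of -0.29, -0.10 and -0.04. The 48 h counts were the same without KD replicate 3, where 4736 of all 19817 genes tested were lower and 4133 higher. With all libraries, 12.4%, 18.5% and 5.15% of all genes passed as lower at 24 h, 48 h and 96 h. As higher, 5.14%, 14.8% and 5.35% did. APEX1, the abasic site endonuclease gene, had values of -0.52 at 24 h and -0.75 at 48 h (edgeR adjusted p = 3.49e-04 and 1.57e-07). LIG1, the ligase gene of replication and repair, fell by 0.30 at 96 h (edgeR adjusted p = 0.00891). Of 21 other genes of DNA-protein adduct repair, 3 were lower and 2 higher at 24 h, 5 lower and 6 higher at 48 h, and 2 lower and 1 higher at 96 h, so that list had no common direction. At 48 h these were 6 lower and 5 higher without KD replicate 3. FEN1, the flap endonuclease gene, fell by 0.53 at 96 h (edgeR adjusted p = 3.12e-04), and it is also in the list of S phase genes given further on. FAM111A, a protease gene for trapped proteins, was 0.57 higher on the log2 scale at 48 h (edgeR adjusted p = 4.62e-05). Among 9 end joining genes 4 were lower at 24 h, 4 lower and 1 higher at 48 h (with and without KD replicate 3), and 2 lower at 96 h. POLQ, the polymerase gene of microhomology joining, fell by 0.73 at 96 h (edgeR adjusted p = 1.23e-05).

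The other PARP genes that passed were mostly higher. Of 14, with a median of 0.10, 0.16 and 0.05 at the 3 times, 4 passed as higher and 1 as lower in the libraries labelled knockdown at 24 h, 4 as higher and 0 as lower in KD at 48 h, and 5 as higher and 1 as lower in KD at 96 h. At 48 h 6 passed as higher and 2 as lower without KD replicate 3, where 4133 and 4736 of all 19817 genes tested did. With all libraries, 5.14%, 14.8% and 5.35% of all genes passed as higher at 24 h, 48 h and 96 h. As lower, 12.4%, 18.5% and 5.15% did. At 24 h PARP9 (1.51, edgeR adjusted p = 1.19e-08), PARP10 (1.90, edgeR adjusted p = 8.77e-06), PARP12 (0.98, edgeR adjusted p = 1.47e-07) and PARP14 (0.73, edgeR adjusted p = 3.47e-05) were higher, all of them interferon-inducible. At 96 h PARP9 (0.56) and PARP12 (0.36) were higher (edgeR adjusted p = 1.75e-04 and 0.00138), and with protein-coding transcripts alone PARP12 was at 0.19 and did not pass (edgeR adjusted p = 0.619). PARP2, a break-activated enzyme in this list and the single-strand break list, fell by 0.39 at 24 h (edgeR adjusted p = 0.0022) and by 0.26 at 96 h (edgeR adjusted p = 0.013).

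TOP2A and BLM belong, as known from many cell types, to the genes made as cells replicate and divide, and proliferation genes moved in these libraries too. Of 20 genes of G2 and mitosis, all 20 passed as lower in the libraries labelled knockdown at 24 h, 12 in KD at 48 h and 20 in KD at 96 h, with medians of -0.52, -0.26 and -0.83. TOP2A at 48 h (0.07) lay above each of these 20 genes, of which the highest was at 0.04. At 96 h TOP2A (-0.98) lay below 18 of the 20, whose range was -1.08 to -0.75. Of 19 S phase genes, 16 were lower at 24 h, 17 at 48 h and 16 at 96 h, with medians of -0.47, -0.38 and -0.55. At 48 h 13 of the 20 and 17 of the 19 passed as lower without KD replicate 3, where 4736 of all 19817 genes tested did. With all libraries, 12.4%, 18.5% and 5.15% of all genes passed as lower at 24 h, 48 h and 96 h. BLM lay above 16 of the 19 at 24 h, above 17 at 48 h and above 6 at 96 h. The 20 genes of G2 and mitosis summed to 3039 to 3513 CPM in KD and 3509 to 3554 CPM in WT at 48 h, and to 1096 to 1182 CPM in KD and 1990 to 2108 CPM in WT at 96 h. Whether the members' differences are separate from those of the proliferation genes was not tested.

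**Figure D4:**
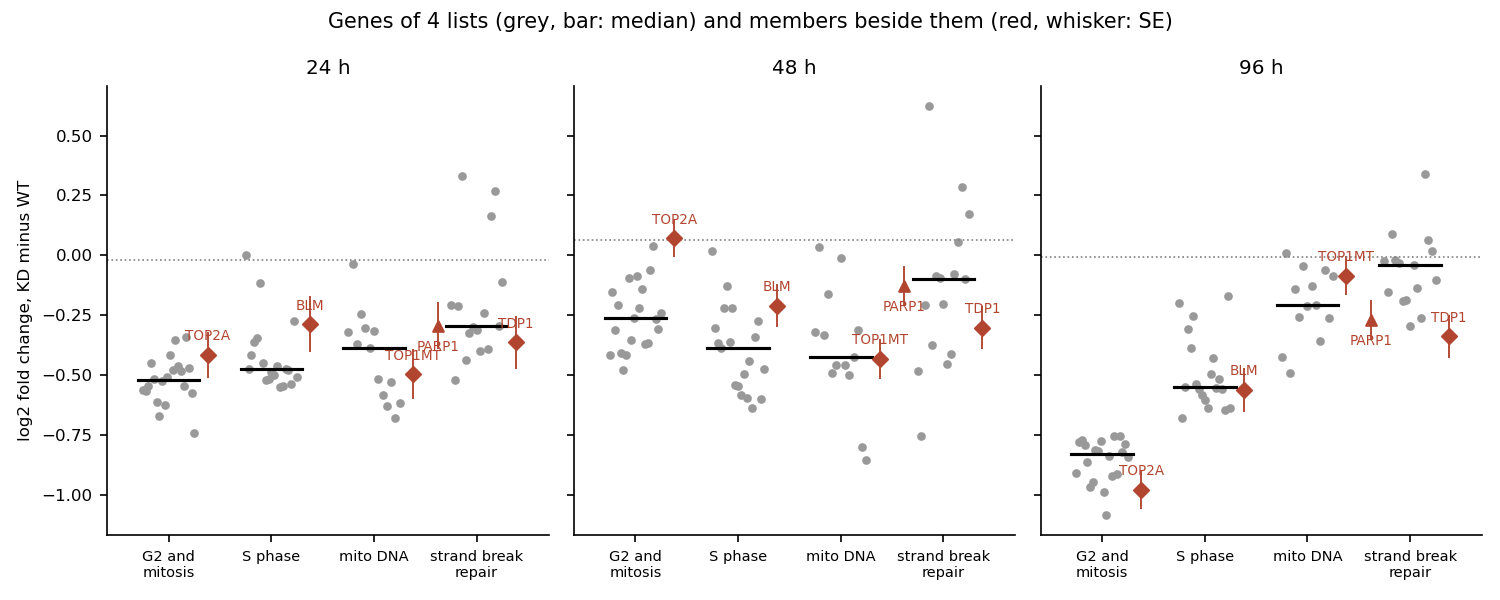
Log2 fold change, KD minus WT, of each gene of 4 lists (grey points, with the list's median as a black bar) and of TOP2A, BLM, TOP1MT, TDP1 and PARP1 (red, whiskers are SEs) at 24 h, 48 h and 96 h; the dotted line is the median of all genes tested. At 48 h TOP2A (0.07) sits above all 20 genes of G2 and mitosis, and at 96 h it sits with them at -0.98, while TOP1MT is near the mitochondrial DNA list at 24 h and 48 h.

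Several members differed between times in WT cells. Each time has its own libraries, so time in culture cannot be told apart from other differences between these sets of libraries. The sizes of these differences were not compared with those of knockdown by a test. From 24 h to 48 h, 6 of 10 passed as higher in WT at 48 h, where 22.5% of all genes did, and none passed as lower, where 22.1% did. From 48 h to 96 h, 5 passed as lower in WT at 96 h (22.7% of all genes) and 1 as higher (23.7%). These comparisons share their WT libraries with the knockdown comparisons. Of all genes, 44.6% passed in either direction for the first step and 46.4% for the second. BLM was 0.97 higher at 48 h than at 24 h on the log2 scale and TOP2A 0.88 higher (edgeR adjusted p = 2.17e-07 and 8.43e-08). TOP3B was 0.48 higher in the same step (edgeR adjusted p = 1.39e-04). At 96 h relative to 48 h TOP2A had a log2 fold change of -1.12, BLM -0.94, TOP3A -0.65, RMI1 -0.62 and PARP1 -0.24, with edgeR adjusted p of 3.56e-10, 3.03e-08, 6.80e-07, 3.79e-04 and 0.0186. The PARP1 call was lost when libraries were scaled by upper quartile, total count or abundance (edgeR adjusted p = 0.0633, 0.0786 and 0.909) and without any 1 of 5 libraries (0.0525 to 0.0832), which were KD replicate 2 of 24 h and WT replicates 1 and 2 of 48 h and of 96 h. With protein-coding transcripts alone BLM passed in neither step (0.76 and -0.51, edgeR adjusted p = 0.0896 and 0.169). TOP2B went the other way, 0.48 higher at 96 h than at 48 h in WT (edgeR adjusted p = 0.0016). TDP1 passed in neither step (-0.08 and 0.11). Across the 16 libraries log2 CPM of TOP2A and BLM had a Pearson correlation of 0.952 and that of TOP2A and TOP2B of -0.549, given as a description, since the libraries share the time course.

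Over the same 16 libraries, among 11053 genes with a mean of at least 5 CPM, the patterns most like TOP2A were those of PRC1 (r = 0.991), GTSE1 (0.989) and NDC80 (0.985), and those most like BLM were ESCO2 (0.994), FANCI (0.989) and CDK1 (0.989). PARP1 was most like TIMELESS (0.974), TOP3A most like DNAJB1, MON1A and CEP72 (each 0.973) and RMI1 most like CDK2AP1 (0.959). TOP1MT was most like ENTR1 (0.945), TOP3B most like ABCC5 (0.943) and TOP2B most like MINCR (0.918). TDP1 was most like AC009055.2 (0.966). TDP2 had no close match, with KANSL3 first at 0.749. All libraries share the time course, and these correlations are given as a description.

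The series also asked about alternative splicing. Within-gene shares of transcripts were tested with limma on the log2 ratio between a transcript and all others of the gene, over 30972 transcripts of 12363 genes. None of the 22 transcripts of members that held at least 10% of their gene passed at 24 h, 48 h, 96 h or for the mean of 48 h and 96 h, where 0.207%, 0.271%, 0.0258% and 0.0936% of all transcripts did. At an unadjusted p under 0.05 there were 0, 5, 2 and 3 of the 22. The last were TOP1MT-201 (limma adjusted p = 0.133), TOP2B-203 (0.353) and TDP1-202 (0.354). In TOP2A, PARP1 and TOP1MT 1 transcript held most of the count: TOP2A-201 held 94.2% to 99.3% of the TOP2A count in every library, PARP1-203 95.2% to 99.6% and TOP1MT-201 86.45% to 95.8%. TOP2B was divided between TOP2B-204, which codes for protein (15.1% to 59.9%), and TOP2B-202, annotated as subject to nonsense-mediated decay (13.8% to 70.9%). BLM-201 held 42.6%, 28.45% and 77.05% of the BLM count in the KD libraries of 48 h and 63.3%, 69.8% and 54.2% in the WT libraries of 48 h. KD replicate 3 was again apart, and without it BLM-201 had a lower share in KD at 48 h (log2 ratio change -1.62, limma adjusted p = 0.0136), as did TOP1MT-201 (-1.48, limma adjusted p = 8.86e-04) and TOP3B-201 (-0.85, limma adjusted p = 0.0343). Without KD replicate 3 of 48 h 2945 of all transcripts (9.51%) passed at 48 h, against 84 (0.271%) with all libraries. TDP2-204 passed at 48 h without WT replicate 3 of 48 h (-6.95, limma adjusted p = 0.0196), where 0.342% of all transcripts did. Retained-intron transcripts held 5.58% and 6.04% of the counts in the 24 h libraries labelled knockdown, against 5.17% and 4.93% in WT. They held 5.73%, 5.29% and 4.18% of the counts in KD replicates 1, 2 and 3 of 48 h, against 4.05% to 4.26% in WT, and the part of this share in the values above, gene levels included, was not tested.

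**Figure D5:**
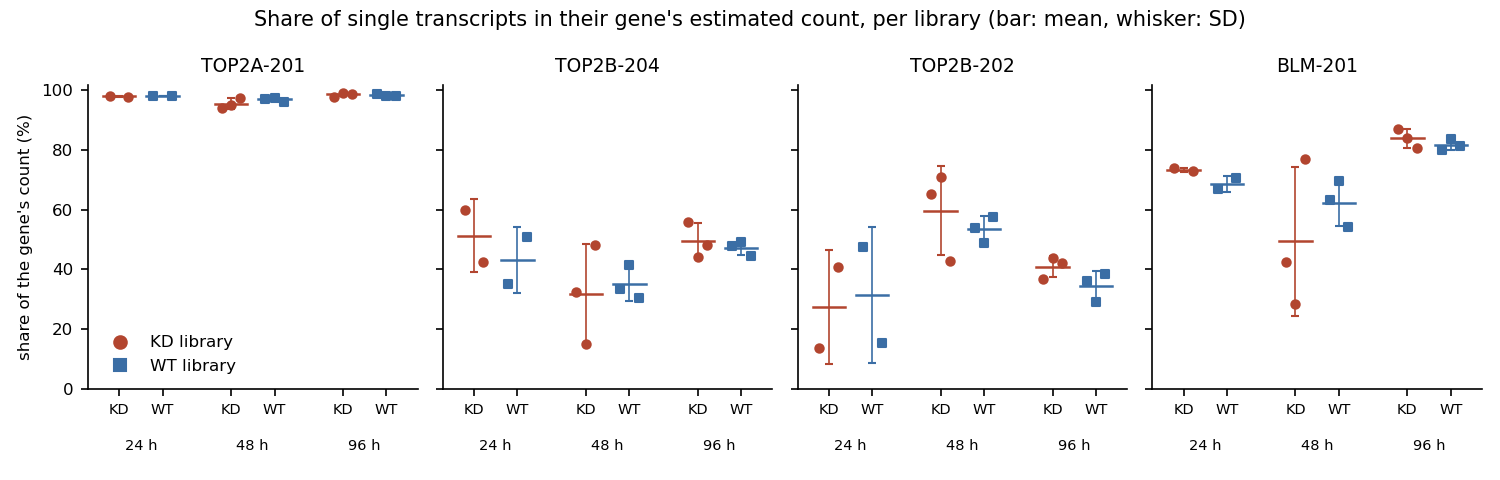
Share (%) of the gene's estimated count held by TOP2A-201, TOP2B-204, TOP2B-202 and BLM-201 in each library, KD (red circles) left of WT (blue squares) at 24 h, 48 h and 96 h; bars are means and whiskers SDs. TOP2A-201 stays at 94.2% or more, whereas BLM-201 ranges from 28.45% to 77.05% between the 3 KD libraries of 48 h.

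Promoters of genes that peak in G2 often carry CCAAT boxes, bound by NF-Y, and a cell cycle genes homology region (CHR), while many S phase promoters carry sites for E2F factors. TOP2A and BLM were lower with knockdown at 96 h, and TOP3B did not pass with knockdown. In WT each of these 3 genes differed between times, TOP3B from 24 h to 48 h (0.48 higher, edgeR adjusted p = 1.39e-04). Their promoters from RefSeq (GRCh38.p14, 250 bases before to 50 after the start site, 5′ to 3′ on the gene's strand) are given here. Capitals mark CCAAT or its reverse ATTGG, the CHR TTTGAA or its reverse TTCAAA, and the E2F site TTCCCGCC or its reverse GGCGGGAA. The motifs were picked with these sequences in view.
TOP2A, chr17:40417847-40418146, minus strand: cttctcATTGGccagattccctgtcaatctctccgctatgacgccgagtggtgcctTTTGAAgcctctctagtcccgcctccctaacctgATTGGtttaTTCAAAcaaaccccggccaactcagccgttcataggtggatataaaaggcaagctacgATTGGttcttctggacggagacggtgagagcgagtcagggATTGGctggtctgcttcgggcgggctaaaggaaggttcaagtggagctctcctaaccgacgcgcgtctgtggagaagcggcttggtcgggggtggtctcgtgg
BLM, chr15:90717096-90717395, plus strand: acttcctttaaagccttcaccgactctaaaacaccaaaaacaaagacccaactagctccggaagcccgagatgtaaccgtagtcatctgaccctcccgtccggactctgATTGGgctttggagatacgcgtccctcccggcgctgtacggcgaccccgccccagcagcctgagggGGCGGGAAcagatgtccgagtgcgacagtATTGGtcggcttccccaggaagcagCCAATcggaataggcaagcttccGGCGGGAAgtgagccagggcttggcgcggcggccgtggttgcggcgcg
TOP3B, chr22:21982738-21983037, minus strand: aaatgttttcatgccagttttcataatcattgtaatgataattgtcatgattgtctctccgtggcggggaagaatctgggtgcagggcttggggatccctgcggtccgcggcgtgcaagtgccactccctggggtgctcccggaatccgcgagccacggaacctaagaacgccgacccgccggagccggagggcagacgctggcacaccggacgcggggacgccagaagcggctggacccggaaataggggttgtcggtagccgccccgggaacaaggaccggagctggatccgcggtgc
TOP2A held 4 CCAAT boxes and 2 CHR motifs in this window and no E2F match. BLM held 3 CCAAT boxes and 2 E2F matches, and TOP3B none of the 3 motifs. Of 35116 promoters of this length, 34.6% held at least 1 CCAAT box, 3.26% at least 3 and 0.991% at least 4. A CHR was held by 15.2%, with 2.27% holding 2 or more. The E2F motif was held by 3.16%, with 0.0911% holding 2 or more. Promoters were at hand for 9 of the 10 members, as 11 entries. TOP3A held 1 E2F match, the 2 entries of RMI1 held 2 CCAAT boxes and 1 E2F match, 1 of the 2 entries of TOP2B held 2 CCAAT boxes and 1 CHR and the other none, TDP1 held 1 CHR, and PARP1 and TDP2 held none. A match is a description of these letters and not evidence of binding.

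By GENCODE 29 on GRCh38, TOP2A lies at 17:40388516-40417950, TOP2B at 3:25597905-25664907, TOP3A at 17:18271428-18315007 and TOP3B at 22:21957025-21982816, each on the minus strand. PARP1 lies at 1:226360691-226408079 and TDP2 at 6:24649977-24667033 on the minus strand. TDP1 lies at 14:89954939-90044768, BLM at 15:90717327-90816165 and RMI1 at 9:83980711-84004074 on the plus strand.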

How the data were processed

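The 16 libraries were strand-specific and made from polyadenylated RNA. The authors deposited expected counts (estimated counts) per transcript as whole numbers; per the submitters' processing notes, kallisto, DESeq2 and hg19 were used, while versions, index and settings are not given there. The program divides reads shared between transcripts by a model, so shares of similar transcripts, and of genes that overlap others, are uncertain. Of 166096 transcripts, 156583 had an Ensembl identifier in GENCODE 29 (GRCh38); the rest held 2.75% to 3.40% of a library and were left out. Counts of matched transcripts were added up to 31495 gene symbols.

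Genes were tested with edgeR 4.0.16 (R 4.3.3) on the estimated counts, with filterByExpr (19836 genes), TMM scaling, 6 group means fitted to 16 libraries (leaving 10 residual degrees of freedom), glmQLFit (robust), glmQLFTest and Benjamini-Hochberg adjustment over all genes, threshold 0.05. CPM use TMM library sizes and TPM the transcript lengths of GENCODE 29. Transcript shares were tested with limma 3.58.1, with 0.5 counts added to each transcript and to the rest of its gene, for transcripts holding 10% or more of the gene in some group and genes with a mean count of at least 20 in every group. Pair ratios were tested by exact permutation of libraries within time. Named genes were the 10 members, NORAD, TOP1, up to 4 genes of lowest p per list and contrast, and the 3 most similar genes per member; PIF1 at 48 h falls outside this rule. The members and gene lists were chosen with earlier results of these data known. Both model tests were checked on simulated counts. Precision is set by 2 or 3 libraries per group more than by depth, and no interval from counts is given. Alternatives were other scalings, DESeq2 1.42.0, no filter, protein-coding transcripts only, libraries of one time only, a replicate block and leaving out each library; leaving out all 24 h libraries, and the time change of pair ratios, were added after the data were seen. Same-numbered KD and WT libraries did not deviate together, so the numbers were not used as pairs.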

Additional observations from a re-analysis of the deposited data

Results flagged for a closer look

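The knockdown difference of TOP2A changed between times by tests of the change itself. It was higher at 48 h than at 24 h by 0.48 on the log2 scale (edgeR adjusted p = 0.0485), and lower at 96 h than at 48 h, with a log2 change of -1.05 (edgeR adjusted p = 9.21e-06). KD libraries of TOP2A had 226 to 259 CPM at 48 h, against 218 to 251 CPM in WT, and 49.8 to 58.7 CPM at 96 h, against 100.3 to 113 CPM in WT. The change from 24 h rests on 24 h libraries in which NORAD was not lower, and it passed with 3 of the 16 libraries left out in turn and not with the other 13.

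The difference in the ratio of TOP2A to TOP2B counts changed by -1.32 on the log2 scale between 48 h and 96 h (exact permutation p = 0.005, adjusted over 6 pairs 0.03, chosen after the values were seen). The genes of G2 and mitosis changed over the same interval: all 20 passed as lower for 96 h minus 48 h, where 4.20% of all genes did. The median of the 20 was -0.55, and their part in the TOP2A values was not tested.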

How the results depend on the processing

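Under total-count, upper-quartile, RLE and abundance-dependent scaling and with no filter on low counts, 0, 1, 2, 2 and 2 members passed at 24 h (5 in the main test), and with the replicate block 2. At 48 h 2 passed with upper-quartile scaling (4 in the main test), and at 96 h 3 with the block (5 in the main test). For 48 h minus 24 h 0 passed under these 5 settings and with the block (1 in the main test). For 96 h minus 48 h 2 passed with total-count, upper-quartile or RLE scaling or DESeq2 and 3 with abundance-dependent scaling. In the F test 2 passed with total-count or upper-quartile scaling or DESeq2 and 3 with abundance-dependent scaling (1 in the main test of both). In the main test, 17.6%, 33.2% and 10.5% of all genes passed at 24 h, 48 h and 96 h in either direction. The counts of all genes called also differed between scalings, as given further up for 24 h and 48 h. The cause was not tested. Replicate numbers did not pair libraries (correlations of same-numbered deviations from -0.263 to 0.062), and the block is given as a check only.

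With each library left out in turn, 1 to 6 members passed at 24 h, 2 to 5 at 48 h, 2 to 5 at 96 h, 6 to 7 for the mean of 48 h and 96 h, 0 to 1 for 48 h minus 24 h, 1 to 2 for 96 h minus 48 h, 1 to 2 in the F test, 5 to 6 for either WT step, and 0 to 1 transcripts of members for the mean.

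Signs turned in the following, none of which passed in either setting. TOP3B at 48 h was at 0.13, 0.14 and 0.10 with total-count, abundance-dependent and upper-quartile scaling, at 0.0174 with protein-coding transcripts and at 0.00014 with libraries of that time only, and its mean of 48 h and 96 h at 0.0296, 0.0412 and 0.0271 with the same 3 scalings. PARP1 at 48 h was at 0.0112 with total-count and 0.0864 with abundance-dependent scaling. With protein-coding transcripts TDP2 was at 0.0157 at 48 h and -0.0255 at 96 h, and the BLM/RMI1 ratio at -0.0319. The PARP1/PARP2 ratio was at 0.00875 with 24 h included. With 1 library left out, TDP2 ranged from -0.10 to 1.25 at 24 h and from -0.0678 to 0.295 at 96 h, TOP3B at 48 h from -0.0731 to 0.024, TOP2B at 96 h from -0.116 to 0.0211, TOP1MT at 96 h from -0.182 to 0.00491 and the TDP1/TDP2 ratio from -0.25 to 0.0381.

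TDP2 was limited by its spread between libraries (SE of 0.41 to 0.55 on the log2 scale).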
